A study of Mus musculus with 30 samples.

Results

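The tumour-propagating cell surface markers examined here are 10 mouse genes whose products have been used to sort or describe stem-like cells of lung and other tumours, out of 21951 protein-coding genes in the annotation. They were Cd24a, Cd44, Prom1, Itgb4, Itga6, Itgb3, Itgb1, Notch3, Aldh1a1 and Thy1, a list set by name and not by any measurement. All 10 were found in the annotation. H3K27ac, acetylation of lysine 27 of histone H3, marks active promoters and enhancers. It was mapped by chromatin immunoprecipitation and sequencing (ChIP-seq) in CK1750 and Tnm2, a pair of mouse lung adenocarcinoma cell lines of which the study describes CK1750 as resembling tumour-propagating cells. Each line was grown in medium with serum and either the solvent DMSO or 1 µM UNC0638, an inhibitor of the histone H3 lysine 9 methyltransferases G9a and Glp (G9ai). The 4 groups comprised CK1750 DMSO (3 samples), CK1750 UNC0638 (2), Tnm2 DMSO (2) and Tnm2 UNC0638 (2), and each group was deposited as 1 merged list of peaks.

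CD24, CD44, prominin-1 (CD133) and THY1 (CD90) are cell surface glycoproteins by which stem-like fractions are often sorted. Integrins are surface receptors for extracellular matrix built of an alpha and a beta chain. The integrin alpha 6 chain pairs with beta 4 or beta 1 to bind laminin, and beta 3 pairs with alpha v. NOTCH3 is a receptor that is cleaved on ligand binding and then acts on transcription through RBPJ, and ALDH1A1 is a cytosolic enzyme that oxidises retinaldehyde. An H3K27ac peak at a promoter marks a promoter in an active state but does not measure RNA or protein.

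The lists held 27367, 24601, 30641 and 18794 peaks in the same order of groups, and values below follow that order where 4 are given. With 1 list per group there was no spread between replicates, and no difference between lines or treatments could be tested. Among the CK1750 samples, 1 of the 3 given DMSO repeats the sequencing of another, and the 2 given UNC0638 share a replicate number. Which libraries entered a list, the control used for peak calling and the sequencing depth are not given in the sources used here. A promoter peak was a peak within 2.5 kb of any annotated transcription start site of the gene, and a missing peak means only that no peak reached the calling cutoff. Each peak carries a score, -10 log10 of its P value, which depends on depth, so peaks were ranked within their own list. The percentile of a peak is the percent of peaks of the same list with a lower score. A bulk profile cannot tell more mark per cell from more cells with the mark. The labelled lung epithelial origin was checked with marker promoters. Of 8 epithelial markers, 5, 4, 4 and 4 had a promoter peak, Epcam in none, and of 6 lung lineage markers 4, 4, 4 and 5. Endothelial markers had 0, 0, 1 and 1 of 5, leukocyte markers 0, 0, 1 and 0 of 6, and fibroblast markers 1, 1, 1 and 0 of 6. Over all protein-coding genes, 50%, 49.1%, 49.4% and 41.3% had a promoter peak. The epithelial counts lay near these shares and so say little about the origin.

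Promoter sequences of 5 of the 10 genes (Cd44, Prom1, Itgb1, Notch3 and Aldh1a1) were matched in the RefSeq promoter table, which gives 250 bases before and 50 bases after a start site on GRCm38.p6, the patch release of mm10. Cd24a, Itgb4, Itga6, Itgb3 and Thy1 had no entry. Those printed here were chosen after their peaks were seen, because they set pairs of like sequence and unlike peak state side by side. They run 5′ to 3′ along the gene, with CG dinucleotides in capitals. Itgb1 (chr8:128685404-128685703, plus strand) and Notch3 (chr17:32166841-32167140, minus strand) were both rich in CG, and Itgb1 had a peak in all 4 lists while Notch3 had none in any.
Itgb1: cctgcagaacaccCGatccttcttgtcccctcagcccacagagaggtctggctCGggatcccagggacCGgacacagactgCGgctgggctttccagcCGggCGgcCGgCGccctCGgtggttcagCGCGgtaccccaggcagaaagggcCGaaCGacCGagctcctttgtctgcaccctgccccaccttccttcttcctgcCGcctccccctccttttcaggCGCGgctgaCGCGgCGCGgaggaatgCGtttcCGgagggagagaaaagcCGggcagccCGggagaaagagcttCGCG
Notch3: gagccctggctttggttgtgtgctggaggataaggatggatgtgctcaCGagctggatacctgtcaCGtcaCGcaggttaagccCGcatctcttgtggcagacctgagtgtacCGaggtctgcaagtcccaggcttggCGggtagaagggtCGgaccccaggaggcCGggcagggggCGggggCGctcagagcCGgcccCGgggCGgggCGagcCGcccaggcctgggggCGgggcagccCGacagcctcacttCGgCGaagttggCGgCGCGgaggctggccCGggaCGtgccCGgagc
Cd44 (chr2:102901616-102901915, minus strand) and the downstream start site of Aldh1a1 (chr19:20601718-20602017, plus strand) were poor in CG and had a peak in all 4 lists. The upstream start site of Aldh1a1 (chr19:20492333-20492632, plus strand) was also poor in CG and had none.
Cd44: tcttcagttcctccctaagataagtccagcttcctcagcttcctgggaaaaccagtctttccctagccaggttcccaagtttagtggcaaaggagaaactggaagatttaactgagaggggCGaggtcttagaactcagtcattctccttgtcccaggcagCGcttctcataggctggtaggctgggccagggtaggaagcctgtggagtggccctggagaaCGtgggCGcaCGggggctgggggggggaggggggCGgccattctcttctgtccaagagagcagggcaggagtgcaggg
Aldh1a1 downstream: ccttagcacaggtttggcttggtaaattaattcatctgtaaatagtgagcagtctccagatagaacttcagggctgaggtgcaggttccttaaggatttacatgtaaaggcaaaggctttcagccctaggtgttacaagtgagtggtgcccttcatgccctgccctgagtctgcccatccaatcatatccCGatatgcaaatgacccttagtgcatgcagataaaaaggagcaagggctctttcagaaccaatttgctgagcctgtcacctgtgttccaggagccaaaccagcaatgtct
Aldh1a1 upstream: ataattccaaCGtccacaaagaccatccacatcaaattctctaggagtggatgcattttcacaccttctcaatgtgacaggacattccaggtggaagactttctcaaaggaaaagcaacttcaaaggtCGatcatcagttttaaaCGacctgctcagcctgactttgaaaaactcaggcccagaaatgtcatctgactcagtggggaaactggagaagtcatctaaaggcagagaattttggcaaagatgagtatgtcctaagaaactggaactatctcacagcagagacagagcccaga
The ratio of observed to expected CG dinucleotides was 0.8 in the Itgb1 promoter and 0.71 in that of Notch3, with 27 and 25 CG dinucleotides. It was 0.25 for Cd44, 0.06 for the downstream and 0.21 for the upstream Aldh1a1 start site, and 0.21 and 0.41 for the 2 Prom1 entries, neither of which had a peak. Over 32851 promoters the median ratio was 0.384, at 0.798 for those with a peak in all 4 lists and 0.235 for those with none. Of promoters with a ratio under 0.2, 5.84% had a peak in all 4 lists, as the downstream Aldh1a1 start site did. Of those from 0.2 to 0.4 it was 10.9%, the class of Cd44. In the class of Notch3, 0.6 to 0.8, 49.1% had a peak in all 4 lists and 30.4% in none.

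**Figure D1:**
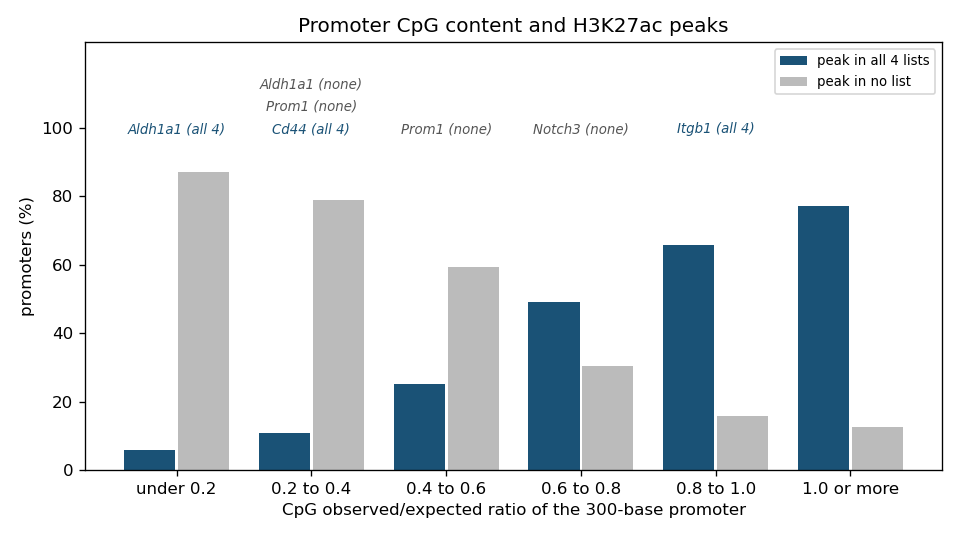
Share of the 32851 RefSeq promoters (y axis, percent) with an H3K27ac peak in all 4 lists or in no list, by the ratio of observed to expected CG dinucleotides in 300 bases (x axis), with the entries of the marker genes named above the class they fall in. The share with a peak in all 4 lists was 5.84% in the lowest class and 77.3% in the highest, and Cd44, the downstream Aldh1a1 start site and Notch3 sat in classes where 10.9%, 5.84% and 49.1% of promoters, in that order, had a peak in all 4 lists.

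Short motifs were searched on both strands of the same 300 bases, and a match describes letters only. The GC box GGGCGG, found in 35.7% of all promoters, was present in Itgb1, in Cd44, in 1 Prom1 entry and at 4 places in Notch3. The AP-1 motif TGANTCA, in 7.81% of promoters, was present in both Prom1 entries and the upstream Aldh1a1 start site. The TEAD motif GGAATG, in 14.7%, was present 7 bases before the Itgb1 start site and in the upstream Aldh1a1 start site. The CCAAT box CCAAT, in 37.4%, occurred in 1 Prom1 entry and at 2 places in the downstream Aldh1a1 start site. No match overlapped that of another motif. TATAAA (13.6% of promoters), the RBPJ motif GTGGGAA (6.38%) and the E-box CACGTG (7.15%) were in none of the 7 entries.

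The first comparison asked which of these promoters carried the mark. Of the 10 genes, 7 (Cd24a, Cd44, Itgb4, Itga6, Itgb3, Itgb1 and Aldh1a1) had a promoter peak in all 4 lists, and Prom1, Notch3 and Thy1 had none in any list. Each list therefore held 7 of 10 member promoters, beside 50%, 49.1%, 49.4% and 41.3% of all protein-coding genes. Peaks in all 4 lists were found for 39.2% of protein-coding genes and in none for 46%. With UNC0638, 0 of the 7 promoters lost their peak in either line and 0 of the other 3 gained one. Over all protein-coding genes, 4.85% of promoters with a peak lost it in CK1750 and 17.7% in Tnm2, and 3.03% and 1.18% of those without one gained one, so a count of 0 among so few genes is near the background. Counted by start site, of 62 sites of the 10 genes 24 had a peak within 2.5 kb in all 4 lists, 38 in no list and 0 in only some. Neighbouring sites of a gene share peaks, so this count is not separate from that of the genes. The share over all annotated start sites was not computed.

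The genes differed in which of their start sites carried the mark. All 3 start sites of Cd24a and all 8 of Cd44 had a peak. Of the 8 start sites of Itga6, the 3 that lay about 42 kb inside the annotated gene had one, and the 5 others, including the most upstream, had none. Aldh1a1 had its peak at 1 of 5 start sites, that of a protein-coding transcript 109 kb from the annotated 5′ end, and none at the 4 upstream sites. Itgb4 had a peak at 5 of 8 start sites, Itgb1 at 3 of 4 and Itgb3 at 1 of 2, and the sites without one lay inside the gene.

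Itgb1, the beta chain shared by many integrins, had the strongest promoter peak of the set in every list. Its score was 3100, 3100, 3100 and 1782.31, where 3100 is the value at which the highest scores pile up. This placed it at percentiles 97.8, 98.3, 99.4 and 99.5, with widths of 2240, 2213, 1974 and 2024 bp. In the first 3 lists 558, 371 and 169 peaks shared the value 3100, so the percentile there is set by the number of ties and gives no measure of how far the peak differed between lists.

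Cd44, the hyaluronan receptor, had 2 promoter peaks in every list. The stronger one scored 1793.77, 1322.47, 924.8 and 272.62, at percentiles 94.1, 91.4, 91.7 and 78.2. Its percentile was lowest in Tnm2 with UNC0638, while its width was 1842, 1905, 1801 and 1943 bp. The laminin-binding chain Itga6 was also lowest there by percentile (91.3, 87.3, 89 and 76.3), with scores of 1347.7, 988.21, 751 and 254.11 in their own lists. Its width was 1996, 1923, 2221 and 1632 bp, narrowest in Tnm2 with UNC0638.

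Cd24a, with CD24 being one of the antigens used in the study to sort tumour-propagating cells, had the widest promoter peak of the set in CK1750. The width was 2910 bp with DMSO and 3253 bp with UNC0638 in CK1750, against 1953 and 1112 bp in Tnm2. In CK1750 the peak began upstream of the most 5′ start site, at position -40 with DMSO and -170 with UNC0638. In Tnm2 the main peak began 848 and 918 bp downstream of that site. It still covered 2 and 1 of the 3 start sites, all of protein-coding transcripts. A second, smaller peak was called near the most 5′ site, whose transcript is not protein-coding, so that the stretch was split by a short gap. Summed over both peaks the width in Tnm2 was 2638 and 1595 bp. Scores were 1231.08, 1538.69, 761.92 and 243.27 and percentiles 90.2, 93.2, 89.2 and 75.1. The difference in percentile of the Cd24a peak, Tnm2 minus CK1750, was -0.98 with DMSO and -18.13 with UNC0638, and 43.7% and 26.8% of genes had a lower difference. Among genes with a promoter peak in all 4 lists, the ranking added later, it was -3.91 and -25.48, and 35.6% and 7.01% of those genes had a lower difference. Ly6a, which encodes Sca-1, the other sorting antigen, stood at percentiles 95.1, 89.1, 51.4 and 2.72. Its scores were 2040, 1110, 146 and 52, the last close to the cutoff of 50. The Ly6a promoter peak thus ranked lower with UNC0638 in both lines. The study reports more surface Sca-1 with UNC0638, with a greater difference in lines low in Sca-1, Tnm2 among them. It also reports more Sca-1 mRNA. The reason for these unlike directions was not tested.

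The remaining promoters ranked lower. Itgb4, the laminin-binding beta chain of hemidesmosomes, scored 369, 412.57, 217.71 and 81.87 at percentiles 70.9, 70.7, 63.6 and 32.1, the lowest value of any member promoter. With a score cutoff of 100 in place of 50 it would drop out in Tnm2 with UNC0638, leaving 6 of 10 member promoters in that list, although 1 cutoff is not equally strict in lists of unknown depth. Itgb3 scored 263.27, 374.72, 197.62 and 190.58 at percentiles 63.5, 68.6, 60.9 and 67.9, higher with UNC0638 than with DMSO in both lines. Aldh1a1 scored 375.77, 326.23, 398.45 and 210.06 at percentiles 71.3, 65.5, 77.6 and 70.8, higher in Tnm2 than in CK1750 under each treatment.

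**Figure D2:**
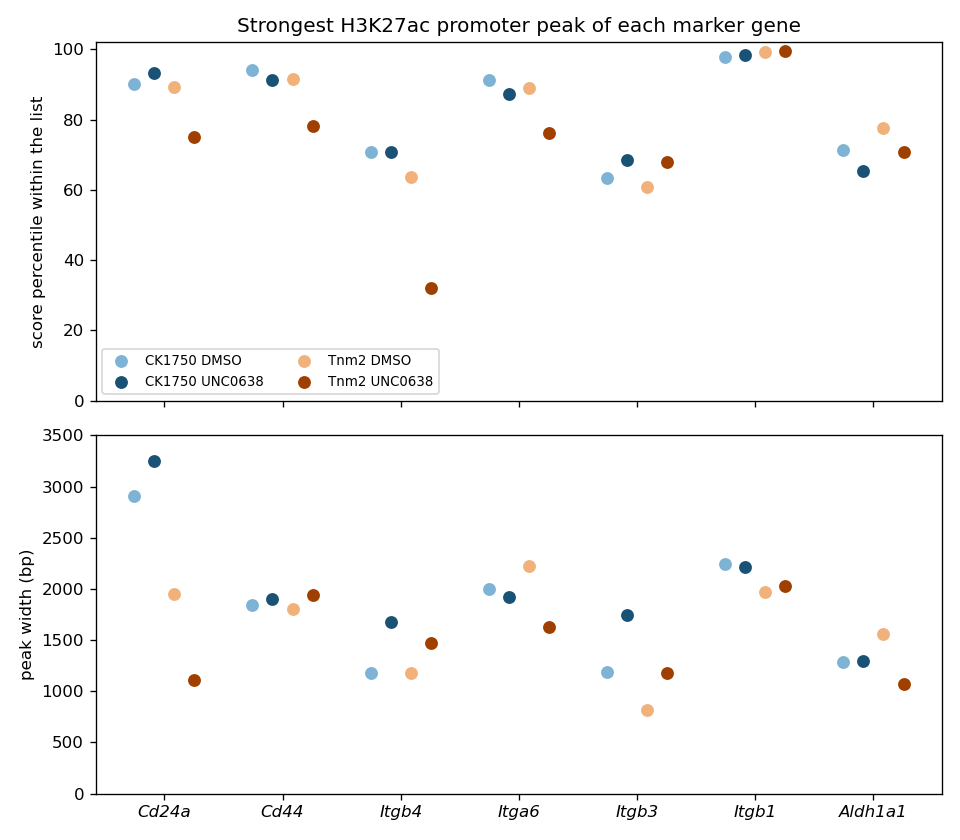
Within-list score percentile (upper panel) and width in bp (lower panel) of the strongest promoter peak of the 7 marker genes that had one, with 1 point per list and no replicates, so no error bars. Itgb1 sits at 97.8 or above in all 4 lists, Itgb4 is at 32.1 in Tnm2 with UNC0638, and Cd24a is 2910 and 3253 bp wide in CK1750 and 1953 and 1112 bp in Tnm2.

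The ranks of most promoter peaks differed between treatments. The median change of the peak percentile with UNC0638 was -2.24 over 10445 genes in CK1750 and -9.52 over 8926 genes in Tnm2, beside member medians of -0.18 and -12.62. The genes were therefore also ranked among the 8615 protein-coding genes with a promoter peak in all 4 lists, a comparison added after the data were seen, for which the median change was 0.34 in CK1750 and 0.43 in Tnm2. On this scale Itgb3 stood at 16.2 with DMSO and 29.1 with UNC0638 in CK1750 and at 14.2 and 46.4 in Tnm2, differences of 12.9 and 32.18 percentile points. Of the 8615 genes, 89.6% in CK1750 and 98.9% in Tnm2 had a lower change than Itgb3. Cd24a had percentiles of 69.7 with DMSO and 81.7 with UNC0638 in CK1750 and of 65.8 and 56.2 in Tnm2, so its rank was higher with G9ai in one line and lower in the other.

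Cd44 and Itga6 ranked lower with UNC0638 in both lines. Cd44 changed by -4.03 in CK1750 and -12.47 in Tnm2, and Itga6 by -6.33 and -7.23. Itgb1 changed by 2.41 and 1.24, values set by ties, since it shared the score 3100 with other genes in the first 3 lists (566, 359 and 170 of the 8615 genes in all). Itgb4 changed by 6.89 and -3.96 and Aldh1a1 by -1.36 and 11.74, but these directions depend on the ranking set. Among all peaks of a list, Itgb4 changed by -0.18 in CK1750 and Aldh1a1 by -6.8 in Tnm2. Of the 7 members, only Itgb3 in Tnm2 fell outside the middle 95% of the 8615 genes, which ran from -27.42 to 26.15 there. Among all peaks of the list, however, Itgb3 changed by 7 in Tnm2, just inside the middle 95% of -52.92 to 7.19. There 97.4% of genes had a lower change. No such range was computed for the other ranking sets.

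**Figure D3:**
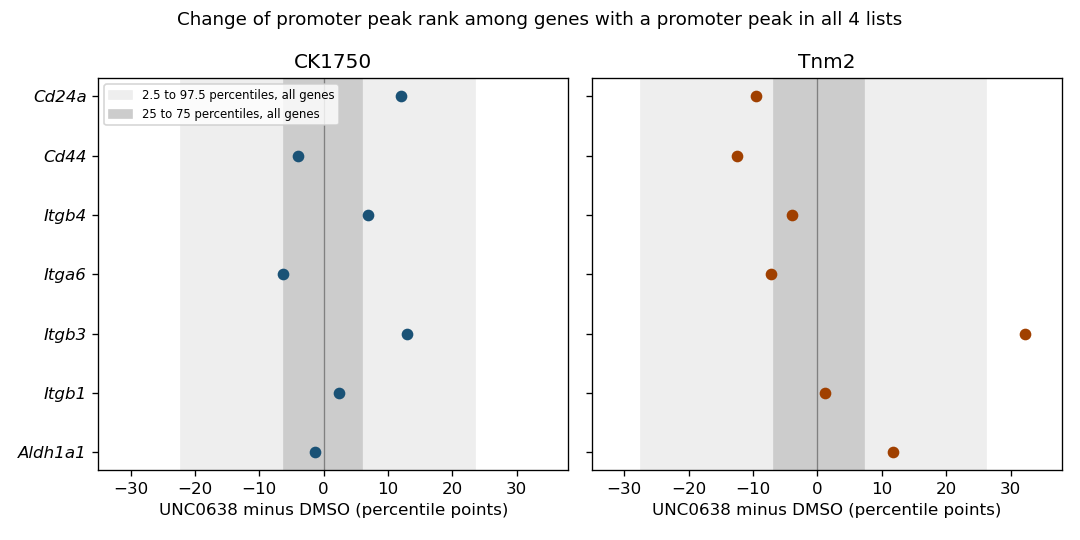
Change of promoter peak rank with UNC0638 (x axis, percentile points, UNC0638 minus DMSO) for the 7 marker genes (rows) among the 8615 protein-coding genes with a promoter peak in all 4 lists, in CK1750 (left) and Tnm2 (right). Dark and light bands hold the middle 50% and 95% of those genes, and Itgb3 in Tnm2, at 32.18, is the only marker gene beyond the light band. Among all peaks of a list, its change in Tnm2 was 7, within the middle 95%.

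Width and rank did not always differ in the same direction. The ratio of promoter peak width, UNC0638 over DMSO, had a median over the members of 1.03 in each line, beside 1.08 over all genes in CK1750 and 0.934 in Tnm2. Itgb3 was wider with UNC0638 in both lines (ratios 1.46 and 1.44), and so was Itgb4 (1.42 and 1.25). Itgb4 in Tnm2 was thus a wider peak of lower rank. Cd24a had ratios of 1.12 in CK1750 and 0.569 in Tnm2, the latter for the larger of 2 peaks, and Aldh1a1 of 1 and 0.688.

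The second comparison took all peaks within 50 kb of the genes, which include candidate enhancers. There were 57, 50, 62 and 40 such peaks. Of these, 40, 34, 46 and 27 had no start site of a protein-coding gene within 2.5 kb. Promoters of other non-coding genes were not checked. The mean per member was 5.7, 5, 6.2 and 4, against 3.27, 2.98, 3.52 and 2.28 per protein-coding gene. The genes themselves are 5.2 to 151 kb long, and the window grows with them. Summed over the lists Itgb4 and Itga6 had the most, at 10, 10, 9 and 8 and at 11, 6, 11 and 7 peaks, and Thy1 the fewest, at 1, 1, 1 and 0.

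Within a line, peaks found with DMSO that shared no base with any UNC0638 peak were counted as lost, and UNC0638 peaks that shared none with a DMSO peak as gained. In CK1750, 13 of 57 DMSO peaks near the members were lost (22.8%, Wilson 95% interval 13.8 to 35.2%), beside 21.8% of the whole list. Gained peaks were 9 of 50 (18%, interval 9.77 to 30.8%), beside 19.6%. In Tnm2, 25 of 62 were lost (40.3%, interval 29 to 52.7%), beside 43.1%, and 3 of 40 were gained (7.5%, interval 2.58 to 19.9%), beside 8.81%. With each list reduced to its 18794 strongest peaks, 5.88% of 34 peaks were lost and 14.3% of 35 gained in CK1750. In Tnm2 18.4% of 38 were lost and 20% of 40 gained, so the balance of loss and gain turned in both lines. These shares rest on few peaks. The shares over the whole reduced lists were not computed, so the turn cannot be read as particular to the members. In both lines and directions the background share of the full lists lay within the members' interval, which covers counting error only.

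The peaks were then split by place. Of own-promoter peaks, 0 of 8 in CK1750 and 0 of 9 in Tnm2 were lost, and 1 of 9 and 0 of 9 were gained, the 1 being a second, weak Aldh1a1 peak (score 51.49). Of all peaks at promoters of protein-coding genes, 10.7% in CK1750 and 29.2% in Tnm2 were lost, and 8.98% and 3.7% were gained. At promoters of other protein-coding genes, 1 of 9 and 3 of 7 peaks near the members were lost. Away from promoters of protein-coding genes, 12 of 40 were lost in CK1750 (30%, background 31.9%) and 22 of 46 in Tnm2 (47.8%, background 53.9%). Gained there were 8 of 34 in CK1750 (23.5%, background 30%) and 3 of 27 in Tnm2 (11.1%, background 14.3%). The lost peaks near the members were weak. Their median DMSO score was 64.8 in CK1750 and 78.2 in Tnm2, beside 178 and 221 for shared peaks. Weak peaks were lost more often in the whole lists too. Away from promoters of protein-coding genes, 53.7% in CK1750 and 80.7% in Tnm2 were lost under a score of 100 (members 44% and 80%). At 100 or more, 9.02% and 28.7% were lost (members 6.67% and 23.1%). The strongest lost peak near the members had a score of 112 in CK1750, near Itga6, and of 197 in Tnm2, 11.5 kb upstream of Itgb3. Counts for single genes were small, and no difference between genes was tested. Itgb3 lost 6 of 10 peaks in Tnm2 (interval 31.3 to 83.2%) and 0 of 6 in CK1750 (0 to 39%), where it gained 2 of 9 (6.32 to 54.7%). Itga6 lost 5 of 11 in each line (21.3 to 72%). Cd44 lost 5 of 11 (21.3 to 72%) and gained 3 of 7 (15.8 to 75%) in CK1750. Each of these intervals held the share of the whole list. Itgb1 kept 2 peaks in every list, with 0 lost or gained.

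**Figure D4:**
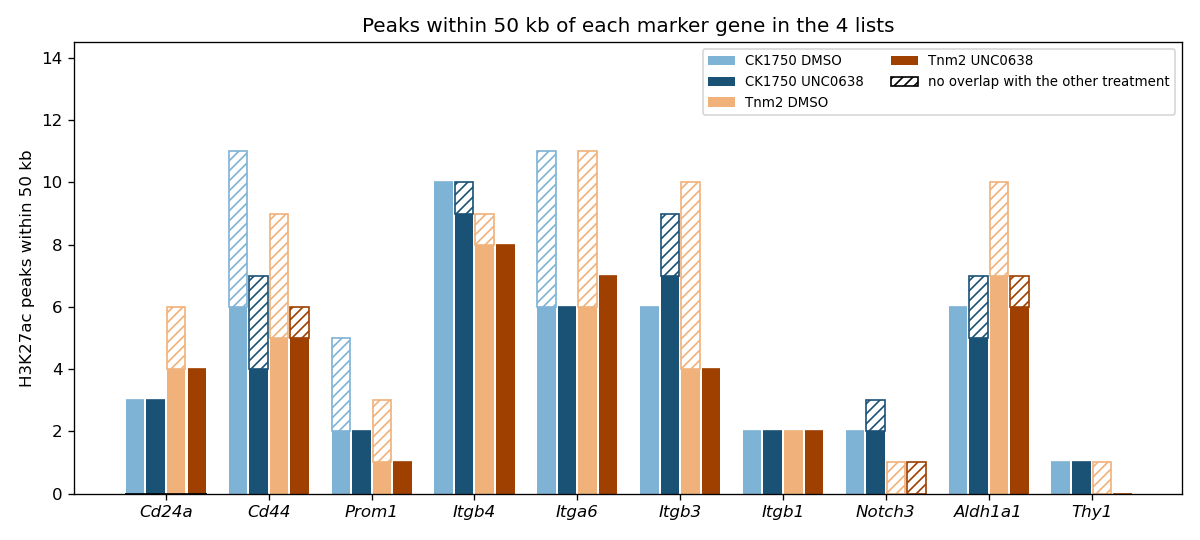
Number of H3K27ac peaks within 50 kb of each marker gene (y axis) in the 4 lists, with the hatched part of a bar giving the peaks that overlap no peak of the other treatment in the same line. Hatched parts are tallest for Itgb3 in Tnm2 with DMSO (6 of 10) and absent for Itgb1.

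Joined over the lists, the peaks formed 74 regions near the members, of 37698 in all. Of these 26 (35.1%) had a peak in all 4 lists, beside 34.2% of all regions, and 13 (17.6%) only in Tnm2 with DMSO, beside 17.4%. By the annotation, 20 regions lay upstream of the gene, 20 downstream, 24 within introns only and 10 over an exon of the gene. Of the 10 over an exon, 8 were in all 4 lists, as were 6 of the 24 in introns, 6 of the 20 upstream and 6 of the 20 downstream. The exon class holds the promoter regions of the 7 members with a promoter peak in all 4 lists. Shares by place were not computed over all regions.

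Several regions stood out by rank or extent. The widest, 6141 bp, lay 18.3 kb upstream of Itgb4 (chr11:115953356-115959496) and scored 1131.77, 1698.91, 2081.21 and 929.92, at percentiles 89.2, 94.2, 98.1 and 97.2. It ranked above the Itgb4 promoter in every list, and in Tnm2 with UNC0638 the promoter stood at 32.1. A region 43.4 kb upstream of Cd44 (chr2:102944170-102945964) scored 135.86, 433.78, 315.21 and 122.93. Among the 12888 regions present in all lists, its percentile was 14.4 with DMSO and 48.7 with UNC0638 in CK1750, where 99.2% of regions had a lower change, and 39.8 and 35.5 in Tnm2, while the Cd44 promoter itself ranked lower with UNC0638 in both lines. The region counts by its strongest peak, and it was called as 2 peaks in CK1750 with DMSO (scores 76.48 and 135.86) and as 1 in each other list.

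At Itgb3 the promoter and an intronic region differed between treatments in opposite directions. The region 10.9 kb inside the gene (chr11:104617400-104620499) scored 319.64, 135.71, 421.15 and 116.47, and its percentile among the regions in all lists was 38.1 with DMSO and 13 with UNC0638 in CK1750 and 51.6 and 32.9 in Tnm2. The region was called as 1 peak in CK1750 with DMSO and as 2 in each other list, with scores of 79.66 and 135.71, of 55.86 and 421.15 and of 116.47 and 115.81, and the part of this splitting in its rank was not tested. A total of 2.15% and 10.3% of regions had a lower change. For the promoter region of Itgb3 the percentile was 31.9 with DMSO and 43.4 with UNC0638 in CK1750, and 21.4 and 55.4 in Tnm2. For a region of Itgb1 centred at -31.1 kb it was 46.8 with DMSO and 69.8 with UNC0638 in CK1750, and 73.6 and 74.4 in Tnm2.

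Aldh1a1 had 11 regions, of which 5 were found in Tnm2 alone and 1 in CK1750 alone. Of all regions, 23.8% were found in Tnm2 alone and 22.4% in CK1750 alone. Its strongest, in an intron 37.7 kb from the annotated 5′ end (chr19:20528951-20531973), scored 473.02, 492.05, 701.28 and 441.74. It outranked the Aldh1a1 promoter peak in every list. This intronic region lay upstream of the only Aldh1a1 start site with a peak, which is 109 kb from the same 5′ end. A region beyond the 3′ end, 161 kb from the 5′ end, was absent in CK1750 with DMSO and scored 65.09, 396.85 and 191.16 in the other lists. Itga6 had 3 of 14 regions in CK1750 alone and 4 in Tnm2 alone, near those shares. Its intronic region 55.5 kb from the 5′ end differed between treatments in opposite directions in the 2 lines. Among the regions in all lists it stood at percentile 14.9 with DMSO and 26.2 with UNC0638 in CK1750, and at 53.5 and 31.2 in Tnm2.

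**Figure D5:**
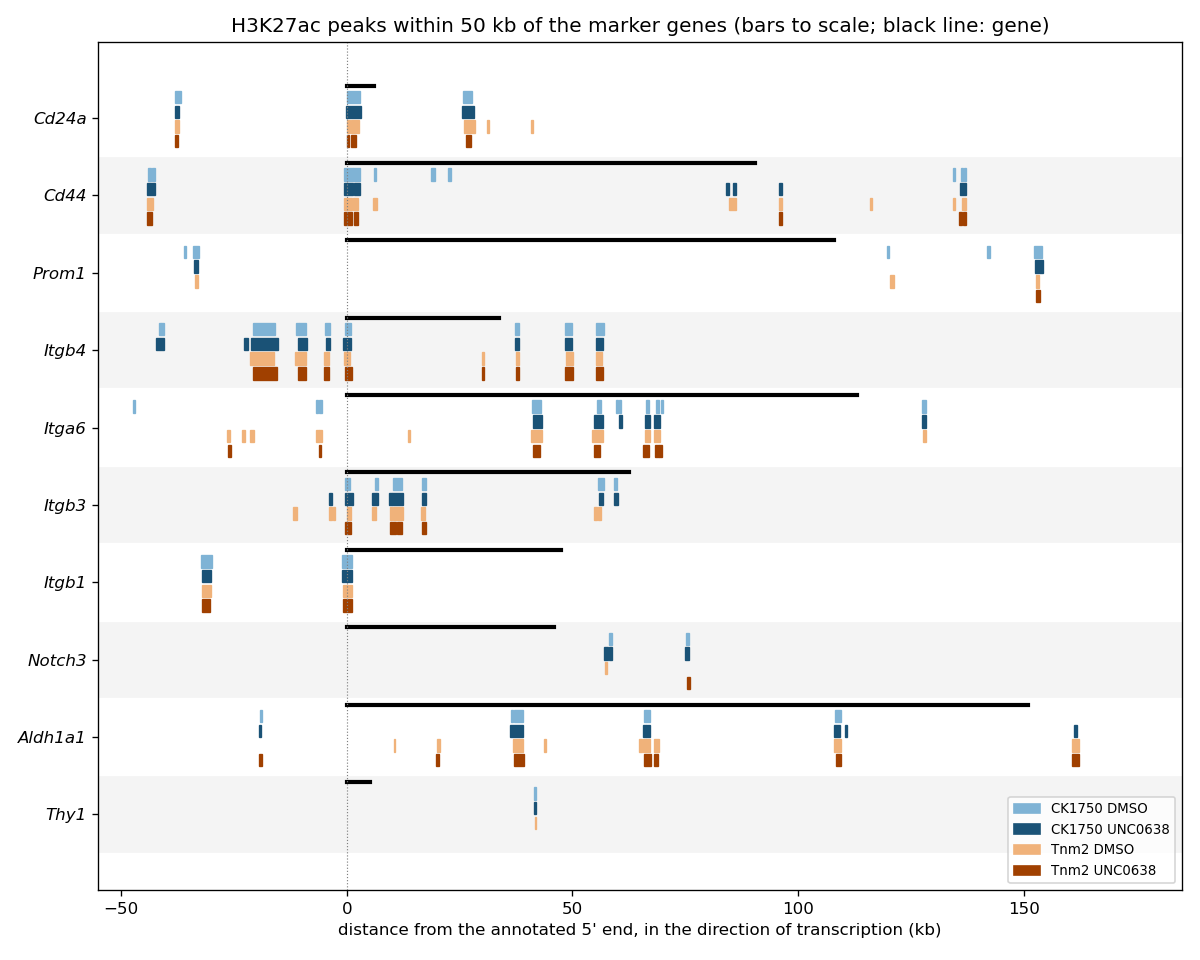
Position of every H3K27ac peak within 50 kb of the 10 marker genes, in kb from the annotated 5′ end along the direction of transcription (x axis), with bars to scale in 4 rows per gene (1 per list) and a black line for the gene. The 6141 bp region upstream of Itgb4 and the promoter peaks of Cd24a, Cd44 and Itgb1 appear in all 4 rows, the Itga6 and Aldh1a1 promoter peaks lie about 42 and 109 kb inside the gene, and no bar touches the bodies of Prom1, Notch3 or Thy1.

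No peak lay within the gene for Prom1, Notch3 or Thy1. For Prom1 the nearest peak to a start site was 22.6, 33, 23.3 and 55.5 kb away. A region centred at -33.4 kb from the 5′ end scored 855.5 and 123.67 in the CK1750 lists and 65.69 in Tnm2 DMSO, and was absent from the remaining list. Its sequence had 47 near-identical copies elsewhere in the genome (at least 80% of the region at 95% identity or more), and that of the region at -35.8 kb had 50, so the origin of their reads is uncertain. The other 72 regions near the members had no such copy. For Notch3 the nearest peak was 25, 24, 24.2 and 42.2 kb away and the highest score within 50 kb was 100.99. For Thy1 it was 37, 37, 37.1 and 64.9 kb away, and the 1 peak within 50 kb, at the promoter of Usp2, scored 52.51, 55.91 and 53.73, close to the cutoff of 50.

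The promoters of genes in the same pathways were counted in lists chosen by function. For this and the next paragraph, the shares over all protein-coding genes were 50%, 49.1%, 49.4% and 41.3% with a promoter peak. A share of 39.2% had one in all 4 lists. The gene lists were small, and no count was tested against these shares. Of 22 other integrin genes, 9, 9, 9 and 8 had a promoter peak, with Itga5 (percentiles 90.6, 93.6, 95.3 and 93.4) and Itgav (93.9, 90.8, 94.2 and 87.6), the partner of beta 3, the highest. Itga7 had a peak with DMSO in both lines (percentiles 32.5 and 28.3) and with UNC0638 in neither. Its peaks were weak, with scores of 88.2 and 81.4 at a cutoff of 50. How many of all genes lost a promoter peak in both lines was not counted. Of 10 laminin chains and other partners of integrin alpha 6 beta 4, 8 had a peak in every list.

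Of 24 Notch pathway genes, 16, 16, 14 and 14 had a promoter peak. The receptor Notch2 stood at percentiles 94.4, 93, 85.8 and 63.4, the ligand Jag1 at 97, 96.7, 96.3 and 94.5 and Rbpj at 94.4, 95.7, 93.4 and 87.8, whereas Notch1, like Notch3, had none. The Notch targets Hey1 (74.1 and 75.3) and Nrarp (35.2 and 54.2) had a peak in CK1750 under both treatments and in Tnm2 under neither. Other targets did not differ between the lines in this way. Hes1 had a peak in every list (96.4, 96, 90.1 and 92.1), and Hey2, Heyl and Hes5 had none. How many of all genes had a promoter peak in CK1750 alone was not counted. Of 16 other aldehyde dehydrogenases, 11, 11, 10 and 10 had one, Aldh3a1 standing at 83.2, 83.8, 95.4 and 90.6, and Aldh6a1 having one in CK1750 alone. Of 8 ligands and partners of CD44, 4, 5, 5 and 3 had one, led by the cytoskeletal linkers Rdx and Ezr, and of 17 other stem-like surface markers 7, 8, 9 and 7. The endothelial marker Pecam1 had a peak in the Tnm2 lists only, at percentiles 43.3 and 73.6.

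The protein-coding genes whose percentiles were most like those of a member over the 4 lists were Bcl10, Mbtps2 and Fnbp1l for Cd44, within 0.93 percentile points in every list. For Itga6 they were Foxo1, Atp11b and Adgra3, within 1.29 points. For Aldh1a1 they were Rab1b, Zfp825 and Plekho2, within 2.87 points, for Cd24a Catsper2, Pdia3 and Zfp787, within 2.22, and for Itgb4 Tiprl, Fam207a and Myo1d, within 3.59. Itgb3 had the least close set, Aldh5a1, Dgat1 and Adh5, within 5.07 points. The genes nearest to Itgb1 were Avpi1, Atp6v0c and Gcat, whose peaks, like its own, ranked at the top of each list.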

How the data were processed

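H3K27ac ChIP-seq was done by the authors in CK1750 and Tnm2 cells with DMSO or UNC0638, grouped by the sample labels. The study's methods and the submitters' processing notes name Bowtie2, SAMtools and MACS 1.4.2 on mm10, with a P value cutoff of 1e-05. The deposited score of each peak is the authors' MACS value, -10 log10 of the P value, with 1 merged list per group. Depth was unknown, so comparisons between lists used ranks within a list. Scores are printed as deposited, and an alternative applied 1 score cutoff to all lists. The 21 H3K9me2 and input samples were not analysed here.

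Start sites came from GENCODE M21 and promoter sequences from RefSeq. No peak ended beyond a chromosome of the reference (21 checked). Near-identical copies were sought with minimap2 2.31. Overlap scripts were tested on simulated data. The scripts ran on Python 3.11.15 with pandas 2.3.3, and figures were drawn with matplotlib 3.10.9.

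The members, gene lists and alternatives were chosen with earlier results of these data known. All members were named, and of other lists the genes whose promoter presence differed between lines under both treatments or between treatments in both lines. Pathway genes outside that rule (Itga5, Itgav, Notch1, Notch2, Jag1, Rbpj, Hes1, Hes5, Hey2, Heyl, Aldh3a1, Rdx, Ezr, Epcam and Ly6a) were named after their values were seen, as were the regions singled out. Genes most alike had the smallest largest difference of percentile over the 4 lists.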

Additional observations from a re-analysis of the deposited data

Results flagged for a closer look

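Each result here had values on opposite sides of 0 in CK1750 and Tnm2 when UNC0638 was compared with DMSO. With 1 list per group the difference between the lines was not tested for any of them.

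The promoter peak of Cd24a ranked 12.03 percentile points higher with UNC0638 in CK1750 and changed by -9.54 in Tnm2, among genes with a promoter peak in all 4 lists. Its direction was the same under every ranking set tried. Itgb4 changed by 6.89 in CK1750 and -3.96 in Tnm2, and Aldh1a1 by -1.36 and 11.74. Both of these opposite directions depended on the ranking set.

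Within 50 kb, Itgb3 had 3 peaks more with UNC0638 in CK1750 (9 against 6) and a difference of -6 in Tnm2 (4 against 10). Aldh1a1 had 1 more in CK1750 and a difference of -3 in Tnm2. The summed width of all peaks within 50 kb of the 10 genes differed by 6.6 kb in CK1750 (66.4 against 59.8 kb) and by -17.4 kb in Tnm2 (49.6 against 67 kb). The length covered by the whole lists differed in the same directions (31.6 against 28.5 Mb in CK1750, 22.9 against 31.8 Mb in Tnm2).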

How the results depend on the processing

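No paired analysis was possible because each list pools the libraries of its group, and for the same reason no library could be left out. The number of members with a promoter peak was 7 in every list under every alternative but 1 (6 in Tnm2 with UNC0638 at a score of at least 100). Peaks within 50 kb numbered 32, 30 and 39 in CK1750 DMSO, CK1750 UNC0638 and Tnm2 DMSO with a 10 kb window, 30, 31, 39 and 23 in the 4 lists at a score of at least 100, and 34 and 38 in the DMSO lists when each list was reduced to its 18794 strongest peaks (the equal-number setting). The difference with UNC0638, -7 in CK1750 and -22 in Tnm2, was -2 and -12 with a 10 kb window. It turned to 1 in CK1750 at a score of at least 100, and to 1 in CK1750 and 2 in Tnm2 with equal numbers. The lost share in CK1750 was 36.8% with a reciprocal overlap of 50%, 6.67% at a score of at least 100 and 5.88% with equal numbers. In Tnm2 the lost share was 18.4% and the gained share 20% with equal numbers. The gained share was 0% both at a score of at least 100 and with a 10 kb window. Shares over the whole lists were not computed under these settings, so none of these values can be read as particular to the members. The equal-number setting removes the difference in list length by construction. The difference of the median promoter peak width in CK1750, 63 bp, was -73 bp with neighbours within 1 kb merged.

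The median change of the members' percentile in CK1750, -0.18, was 1.07 among peaks within 2.5 kb of a start site, 1.83 among protein-coding genes with a promoter peak and 2.41 among those with one in all 4 lists, a ranking added after the data were seen. In Tnm2, -12.62 became -3.96 with that ranking. For single genes, Itgb4 in CK1750 turned from -0.18 to 1.82, 4.94 and 6.89 under these 3 rankings, and Aldh1a1 in Tnm2 from -6.8 to 1.77 and 11.74 under the last 2. The cause of these shifts was not tested. Of 166 alternative values, 112 stayed within 1.5 times the reported value or within its interval, 42 moved further and 12 reversed. The unknown depth of the lists limits all comparisons of weak peaks.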
